A study of Mus musculus with 16 samples.

Results

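T cells that carried a single T cell receptor beta chain (TRB) and no alpha chain (TRA) in the deposited receptor files are described here as beta-only cells. A barcode was a member where its file listed exactly 1 TRB contig, the assembled receptor sequence, and no TRA contig. By that rule 28330 of the 74368 barcodes in the 8 receptor libraries were beta-only, or 38.1%. They were compared with the 38108 paired barcodes, which held 1 TRB and 1 or 2 TRA contigs. Another 3853 barcodes held TRA contigs only, and 4077 held 2 or more TRB contigs. The rule reads contigs that were assembled and deposited, so it says nothing on whether the alpha gene of a member was rearranged or transcribed.

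The receptors came from splenic CD4+ T cells of mice that all carried a Vk12653 myeloma graft, given at day 0, and an antibody that depletes NK1.1-bearing cells (50 µg at days -2 and 5). Mice then received anti-4-1BB, an antibody against a costimulatory receptor, or IgG as its control (20 µg at days 10, 13 and 16), and CD44high CD4+ T cells were sorted at day 18. The mutant (KO) mice were Eomesfl/fl-CD4Cre in experiment 1 and Eomesfl/fl-ERT2CD4Cre with tamoxifen in experiment 2. The WT mice were Eomes-IRES-GFP and were given tamoxifen in experiment 2 as well. CD4Cre acts in developing T cells and therefore also in CD8+ T cells, whereas the ERT2 form needs tamoxifen to act. Each of the 4 groups, KO with anti-4-1BB, KO with IgG, WT with anti-4-1BB and WT with IgG, had 1 library in each of the 2 experiments, so effects of the knockout type and of the experiment cannot be told apart. The labels do not say whether a library was 1 mouse or a pool, so permutation p-values measure the spread between libraries. In tests of V and J gene segments between beta-only and paired cells, the spread was pooled over segments. Those p-values do not measure the spread of a single segment between libraries.

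The antigen receptor of most CD4+ T cells is a heterodimer of an alpha and a beta chain, both of which are needed at the surface. In the thymus the beta locus rearranges first, by joining a V, a D and a J segment, and a cell usually keeps 1 productive beta chain. The alpha locus rearranges later and can go on recombining on both alleles. Because all daughters of a mature T cell inherit the same rearrangements, cells of a library that share the V segment, the J segment and the CDR3 nucleotides of their TRB were treated as a TRB clone. The CDR3, the complementarity-determining region that spans the junction of V and J, is the most variable stretch of the chain.

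The beta CDR3s of the clones that held most beta-only cells are shown first, since these clones recur in the results below. All 5 came from experiment 2, from WT mice given anti-4-1BB, and the TRB locus lies on mouse chromosome 6. Each is printed 5′ to 3′, and capitals mark the junction, that is the bases left after removing the start shared with the majority bases of its TRBV and the end shared with those of its TRBJ. The V segment written as TRBV12-2 or TRBV13-2 is a joined label of the files, TRBV12-2+TRBV13-2. What the joining means was not tested.
TRBV23 with TRBJ2-7: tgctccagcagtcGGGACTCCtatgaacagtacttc
TRBV31 with TRBJ2-4: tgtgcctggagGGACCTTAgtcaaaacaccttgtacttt
TRBV31 with TRBJ2-1: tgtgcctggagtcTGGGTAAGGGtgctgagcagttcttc
TRBV13-1 with TRBJ1-1: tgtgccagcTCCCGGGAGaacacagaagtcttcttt
TRBV12-2 or TRBV13-2 with TRBJ2-7: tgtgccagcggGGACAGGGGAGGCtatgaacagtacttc

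A further 2 clones of that library are the largest that had beta-only cells and no paired cell, and the last, from WT mice given anti-4-1BB in experiment 1, is the largest that had paired cells and no beta-only cell.
TRBV26 with TRBJ2-2: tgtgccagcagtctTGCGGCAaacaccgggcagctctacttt
TRBV31 with TRBJ2-1, no paired cell: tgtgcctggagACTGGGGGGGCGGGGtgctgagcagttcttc
TRBV26 with TRBJ2-7: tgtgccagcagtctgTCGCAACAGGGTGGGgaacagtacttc

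The libraries held 4637 to 14657 barcodes and 80551 to 445027 receptor unique molecular identifiers (UMIs), which count captured messages. Of 4077 barcodes with 2 or more TRB contigs 0 lacked a TRA contig, which as a count alone allows a share of up to 0.0736%. Barcodes with 1 TRB and 3 or more TRA contigs also numbered 0. Whether such barcodes were removed before deposit was not tested, so neither 0 is taken as a rate among cells. Pairs of libraries shared 35 to 245 barcodes, and 3198 of the 71086 distinct barcodes occurred in 2 or more libraries, but 0 of the shared barcodes carried the same TRB. No gene expression file was used, so no marker other than the receptor could be read.

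The beta-only share differed more between libraries than counting error allows, and it did not differ by treatment or genotype past the threshold. In experiment 1 it was 30.9% in KO anti-4-1BB, 33.8% in KO IgG, 25.9% in WT anti-4-1BB and 42.3% in WT IgG. In experiment 2 it was 46.8%, 36.4%, 46.6% and 42.0% in the same order of groups. The lowest value, WT anti-4-1BB of experiment 1, had a 95% interval (Clopper-Pearson, counting error only) of 25.2% to 26.6%, and the highest, KO anti-4-1BB of experiment 2, one of 45.9% to 47.7%. The mean share was 37.6% with anti-4-1BB and 38.6% with IgG, a difference of -1.04 percentage points (two-sided exact permutation test over 70 arrangements, p = 0.857, n = 4 each; adjusted p = 0.857 over the 6 permutation tests of this kind). It was 37.0% in KO and 39.2% in WT, a difference of -2.22 points (exact permutation p = 0.686, adjusted p = 0.857). The treatment difference was -9.60 points in experiment 1 and 7.52 points in experiment 2, with the same sign in KO and WT inside each experiment. The genotype difference was -1.74 points in experiment 1 and -2.70 points in experiment 2, and it was 2.59 points under anti-4-1BB and -7.03 points under IgG. Cells with TRA contigs only were 4.06% to 8.65% of a library.

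**Figure D1:**
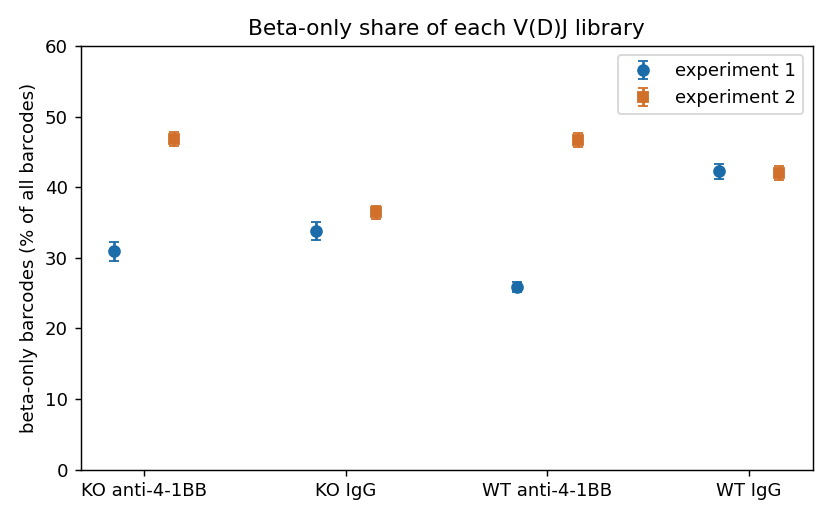
Share of barcodes that were beta-only (y axis, % of all barcodes of a library) in each group (x axis). Points are the 8 libraries, circles for experiment 1 and squares for experiment 2, and bars are 95% Clopper-Pearson intervals. The anti-4-1BB libraries of experiment 1 lie at 30.9% and 25.9%, and those of experiment 2 at 46.8% and 46.6%.

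Beta-only cells carried slightly fewer TRB UMIs than paired cells of the same library. The median TRB UMIs of a library were lowest 8, median 11.5 and highest 15 in beta-only cells and lowest 10, median 13 and highest 18 in paired cells. Every library had the lower median in its beta-only cells, but the ranges of the classes overlapped. The mean log2 ratio was -0.20 ± 0.11 (SD, n = 8 libraries; two-sided exact permutation test over 256 sign patterns, p = 0.00781, which is the smallest they can give; adjusted p = 0.0234). With the 16 values exchanged freely between classes, without the library as a pair, the exact permutation p was 0.211. In paired cells the TRA contig rested on fewer UMIs than the TRB, with library medians of 6 to 10. Reads per UMI behind the TRB had library medians of 25.6 to 83.6 in beta-only cells and 23.5 to 92.1 in paired cells.

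Beta-only cells were found at every level of TRB support. TRBs with 10 or more UMIs were 42.9% to 78.6% of those of beta-only cells and 54.0% to 80.3% of those of paired cells, by library. Among TRBs with 1 UMI only 8 of 236 cells were beta-only (3.39%), and with 2 UMIs 248 of 692. The share was 47.5% at 3 to 4 UMIs, 46.8% at 5 to 8 and 46.3% at 9 to 16, pooled over libraries that differed in course. Across these classes KO IgG of experiment 1 had 51.5%, 42.7% and 35.9%, and WT anti-4-1BB of experiment 2 had 46.8%, 52.1% and 55.5%. The pooled share was lower above that, at 39.4% for 17 to 32 UMIs and 26.3% for 33 or more. Even in that highest class the libraries ranged between 18.2% and 37.6% beta-only. The beta-only cell with most TRB UMIs had between 67 and 170 of them, depending on the library.

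**Figure D2:**
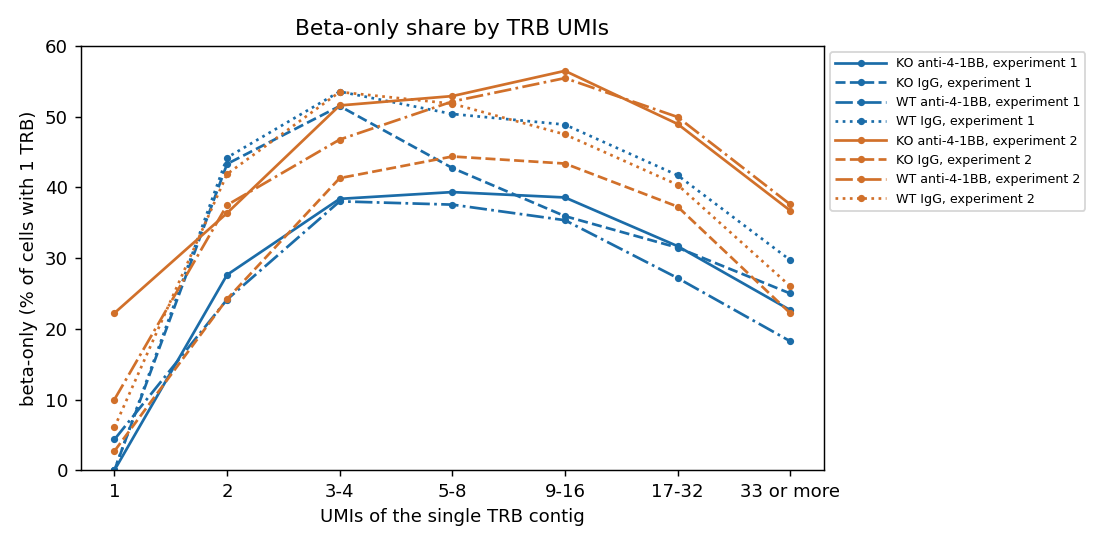
Share of single-TRB cells that were beta-only (y axis, %) by the UMIs of their TRB contig (x axis, classes of UMIs) in the 8 libraries. Blue lines are experiment 1 and orange lines experiment 2, and line styles give the group. Pooled over libraries the share is 3.39% at 1 UMI, 47.5% at 3 to 4 UMIs and 26.3% at 33 or more.

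V segment use differed between the classes. To keep large clones from setting the values, each distinct TRB was counted once per class and library, which gave 22314 distinct TRBs in beta-only cells and 29008 in paired cells. Of the 34 TRBV and TRBJ labels tested, 17 (50%) passed an adjusted p of 0.05 (edgeR quasi-likelihood test with library as a block, Benjamini-Hochberg over all 34), 9 higher (26.5%) and 8 lower (23.5%) in beta-only cells. With trimmed mean (TMM) factors 14 passed, 6 higher and 8 lower, and TRBV13-3, TRBV26 and TRBJ2-3 were the higher labels that no longer did. The fit found no spread of its own per segment, and each SE rests on a spread pooled over the segments of its type.

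TRBV2 stood furthest from equal use. It lies at chr6:41047556-41047995 (RefSeq, GRCm38.p6, as for the other positions given). TRBV2 made up lowest 0.202%, median 0.751% and highest 0.929% of the distinct TRBs of beta-only cells, against lowest 1.85%, median 2.65% and highest 3.70% in paired cells. These ranges did not overlap, and the log2 fold change was -2.00 ± 0.12 (SE; edgeR, adjusted p = 1.42e-33). Counted as cells, 174 of the 1238 with TRBV2 were beta-only (14.1%), between 8.11% and 22.7% by library. TRBV2 contigs rested on a median of 8 UMIs, the lowest of the TRBV labels.

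TRBV19, at chr6:41178589-41179048, was lower in all 8 libraries. Its share of distinct TRBs was lowest 1.85%, median 3.09% and highest 4.33% in beta-only cells and lowest 2.88%, median 4.42% and highest 5.96% in paired cells (log2 fold change -0.59 ± 0.08, edgeR adjusted p = 1.00e-09). TRBV3, at chr6:41048394-41048824, made up 7.73% ± 1.61 in beta-only cells and 10.2% ± 1.37 in paired cells (SD, n = 8) and was lower in 7 of 8 libraries, by -0.41 ± 0.06 on the log2 scale. Contigs labelled jointly as TRBV12-2 and TRBV13-2 made up 10.5% ± 1.30 and 12.8% ± 0.898 (SD) in beta-only and paired cells and were lower in 8 of 8 libraries, by -0.29 ± 0.06. The median contig had 564 bases under the joined label, 564 under TRBV12-2 alone and 524 under TRBV13-2 alone. TRBV12-1, of the Vbeta5 family, was lower in 7 of 8 libraries (-0.46 ± 0.11). It was the segment with the widest range between libraries, 0.547% to 5.70% in beta-only cells and 0.674% to 8.46% in paired cells.

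Of the TRBV labels 6 took a larger share in beta-only cells. TRBV31, the only TRBV that lies downstream of the J and C genes and joins them by inversion (chr6:41557693-41558371), was higher in 8 of 8 libraries. It made up lowest 8.21%, median 9.50% and highest 12.0% of distinct TRBs in beta-only cells and lowest 6.97%, median 7.96% and highest 8.64% in paired cells (log2 fold change 0.37 ± 0.06, edgeR adjusted p = 3.24e-07). TRBV15, at chr6:41141211-41141658, was also higher in 8 of 8, with 6.28% ± 0.939 in beta-only cells and 4.74% ± 0.699 in paired cells (SD, n = 8; 0.41 ± 0.07). TRBV29, at chr6:41271403-41271881, was higher in 7 of 8, with 2.81% ± 0.464 and 2.04% ± 0.312 (0.49 ± 0.10). TRBV13-1, TRBV13-3 and TRBV26 were higher by 0.25 ± 0.07, 0.23 ± 0.07 and 0.22 ± 0.07 on the log2 scale. None of these 3 passed with DESeq2 (adjusted p = 0.106, 0.278 and 0.264), and TRBV13-3 and TRBV26 did not pass with TMM factors either. The classes overlapped between libraries for each of these segments, TRBV2 being the exception.

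Of the 12 TRBJ labels 3 were lower and 3 higher. TRBJ1-5 and TRBJ1-4 were lower in beta-only cells, by -0.33 ± 0.08 and -0.20 ± 0.05 on the log2 scale, each in 7 of 8 libraries. TRBJ2-5 was lower by -0.08 ± 0.03, in 5 of 8 libraries, and higher in the other 3. TRBJ2-1, TRBJ2-7 and TRBJ2-3 were higher by 0.11 ± 0.04, 0.08 ± 0.03 and 0.10 ± 0.04. TRBJ2-7 made up 19.2% ± 1.01 of distinct TRBs in beta-only cells and 18.2% ± 0.420 in paired cells (SD, n = 8) and was higher in 8 of 8 libraries. TRBJ1-4 and TRBJ1-5 passed in all 20 other settings of the fit. TRBJ2-1 did not pass without KO anti-4-1BB of experiment 1, KO IgG of experiment 2 or WT anti-4-1BB of experiment 2, with an edgeR adjusted p of up to 0.0784. TRBJ2-7 did not pass without WT anti-4-1BB or WT IgG of experiment 1 (up to 0.130), nor with cells counted in place of distinct TRBs (0.517). TRBJ2-3 passed in 10 of 20 settings, and not without KO anti-4-1BB, WT anti-4-1BB or WT IgG of experiment 2 or WT anti-4-1BB of experiment 1 (edgeR adjusted p up to 0.0855). TRBJ2-5 passed in 12 of 20, and not without KO IgG of experiment 1 or any library of experiment 2 (up to 0.113).

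Grouped by family, the members of a group did not move as one. Of the 4 Vbeta8 labels 2 rose, 1 fell and 1 did not pass (median log2 fold change 0.21, against 0.04 over all 34 labels, of which 26.5% rose and 23.5% fell). The Vbeta8 label that fell is the joined TRBV12-2 or TRBV13-2 label. The one that did not pass is TRBV13-2, at 0.18 ± 0.10 (edgeR adjusted p = 0.145). With the joined label counted as TRBV13-2, 17 of 33 labels passed, 9 higher and 8 lower. Of the 2 Vbeta5 labels 1 fell and 1 did not pass (median -0.27). Of the 6 beta segments that can pair with the invariant alpha chain of natural killer T (NKT) cells, 3 rose, 1 fell and 2 did not pass (median 0.21), and 4 of these 6 are the Vbeta8 labels. The one that fell is again the joined label. Of the 6 TRBJ1 segments 2 fell and 4 did not pass (median -0.01), and of the 6 TRBJ2 segments 3 rose, 1 fell and 2 did not pass (median 0.03).

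**Figure D3:**
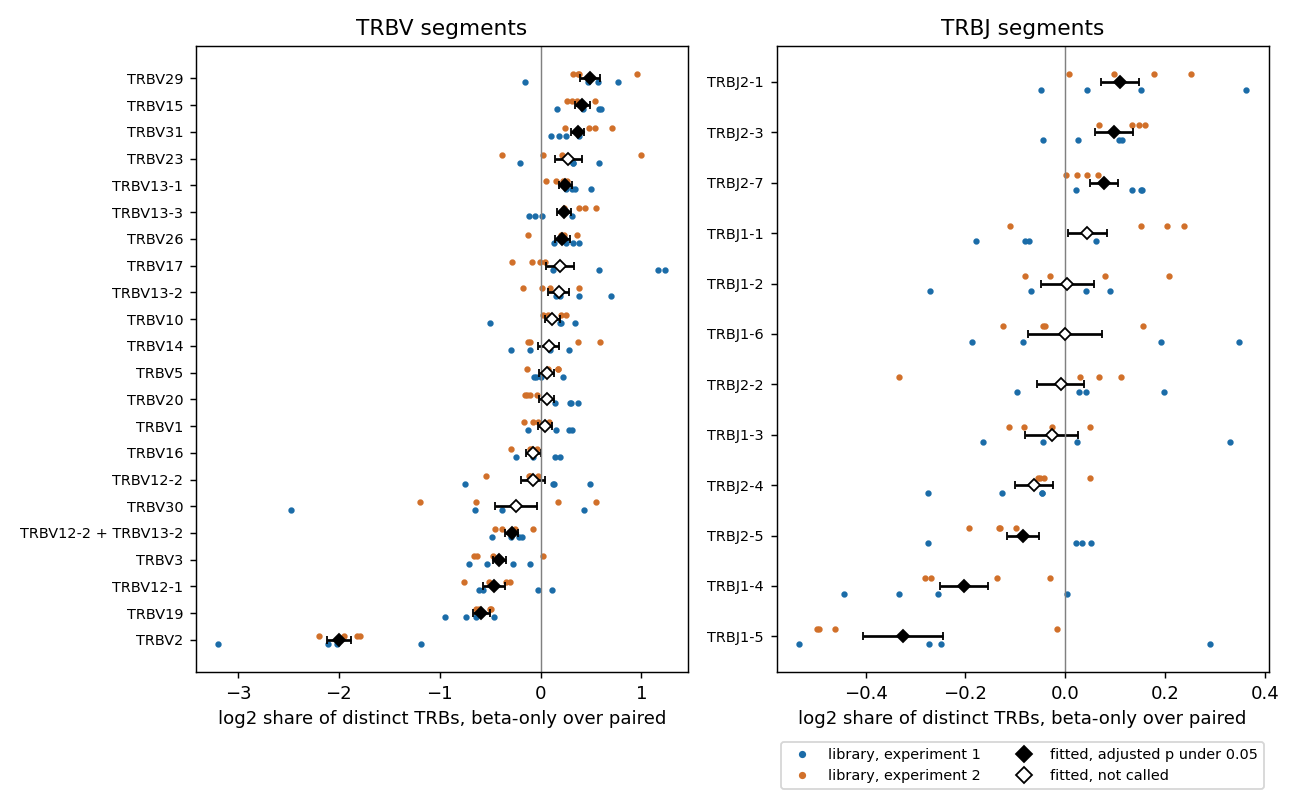
Log2 ratio of the share of distinct TRBs, beta-only over paired (x axis), for each TRBV and TRBJ label (y axis). Dots are the 8 libraries, blue for experiment 1 and orange for experiment 2, diamonds are fitted values with their SE, and filled diamonds passed an adjusted p of 0.05. TRBV2 lies at -2.00, apart from the other labels.

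Beta-only shares were mostly lower among TRBV segments with long contigs. Over the 21 TRBV labels with 500 or more cells, the 9 whose median contig exceeded 540 bases were beta-only in 14.1% to 45.5% of cells, and the 11 under 530 bases in 42.0% to 52.3%. The rank correlation of contig length with the beta-only share was -0.85 over these 21 labels, as a description, since the labels share libraries and depth. The rank correlation of the median TRB UMIs with that share was 0.20. Contig length did not separate the classes within a segment: TRBV2 contigs had a median of 565 bases in both classes, TRBV3 of 596 and TRBV31 of 516. TRBV19 had 641 bases in beta-only cells and 650 in paired cells. The part of contig length in the V segment differences was not tested. Contigs without a C gene label were 0.418% to 1.16% of the TRBs of beta-only cells and 1.76% to 2.77% of those of paired cells.

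**Figure D4:**
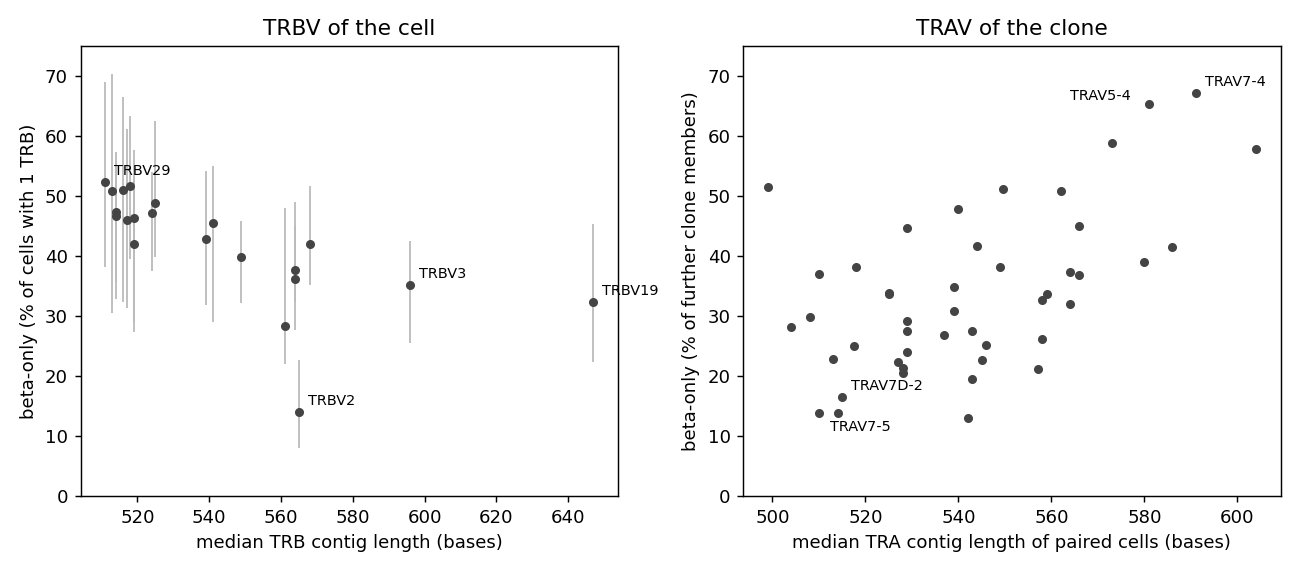
Beta-only share (y axes, %) against median contig length in bases (x axes). Left, the 21 TRBV labels with 500 or more cells, with bars for the range over the 8 libraries; right, the TRAV of clones with 40 or more further members, with the contig length measured in paired cells. TRBV2 lies lowest on the left at 14.1%, and TRAV7-4 and TRAV5-4 highest on the right at 67.2% and 65.4%.

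The beta CDR3 was shorter by a small amount in beta-only cells. The mean over distinct TRBs was lowest 40.9, median 41.1 and highest 41.5 nucleotides in beta-only cells and lowest 41.1, median 41.3 and highest 41.5 in paired cells. The mean difference was -0.136 ± 0.102 nucleotides (SD, n = 8; two-sided exact permutation test over 256 sign patterns, p = 0.0156; adjusted p = 0.0312), lower in 7 of 8 libraries. The exception was KO IgG of experiment 2, at 0.0249 nucleotides. CDR3s of 36 nucleotides or less made up 17.5% of distinct TRBs of beta-only cells and 16.7% of those of paired cells on average, and those of 48 or more 8.12% and 8.60%. The median was 42 nucleotides in both classes of every library. Without the library as a pair the exact permutation p was 0.101. V and J use was not held fixed here, and its part in the length difference was not tested.

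Sharing of a TRB within a class did not differ between the classes past the threshold. After thinning both classes of a library to the same number of cells, lowest 22.3%, median 27.7% and highest 42.4% of beta-only cells shared their TRB with another beta-only cell. For paired cells, sharing with another paired cell, the values were lowest 13.1%, median 27.5% and highest 52.5%. The mean difference was -0.818 ± 7.73 points (SD, n = 8; two-sided exact permutation p = 0.734, adjusted p = 0.857). In experiment 1 the difference was 9.40 points in KO anti-4-1BB, 7.19 in KO IgG, 3.90 in WT anti-4-1BB and 0.00678 in WT IgG. In experiment 2 it was -12.4, -3.24, -10.1 and -1.30 points in the same order. Without thinning the mean difference was -4.12 points (exact permutation p = 0.0859), and WT anti-4-1BB and WT IgG of experiment 1 were then at -5.38 and -1.15 points.

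Beta-only cells were less often members of a clone seen with its alpha chain. In lowest 16.8%, median 22.9% and highest 38.4% of beta-only cells the TRB was carried by a paired cell of the same library, against lowest 19.1%, median 29.3% and highest 52.5% for paired cells looked up among the other paired cells. The means were 24.5% ± 6.42 and 32.8% ± 10.7 (SD, n = 8), and the difference of -8.33 ± 5.13 points held in 8 of 8 libraries (two-sided exact permutation test over 256 sign patterns, p = 0.00781, the smallest they can give; adjusted p = 0.0234). With classes exchanged freely over the 16 values the exact permutation p was 0.0769. The remaining beta-only cells had a TRB seen in no other single-TRB cell of the library (52.6% to 70.6%) or in other beta-only cells alone (9.08% to 13.1%). Counted as distinct TRBs in place of cells, 2.25% to 3.26% of those of beta-only cells were found in a paired cell of another library. For the distinct TRBs of paired cells the values were 1.97% to 3.22%.

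Within clones, lack of the alpha chain ran together. Among cells with a clone mate, the mates of beta-only cells were beta-only in 50.9% to 64.0% of cases by library, and the mates of paired cells in 21.5% to 33.9%, and the ranges did not overlap. No test was made of this difference, since the cells of a clone share their source. Over all single-TRB cells the share was 30.0% to 51.4%.

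The 333 TRB clones with 10 or more cells spanned the whole range of beta-only shares, with a median of 36.4%. Of these clones 16 had no beta-only cell and 8 had no paired cell, 90 were under 20% beta-only and 48 over 80%. The TRBV23 clone shown above held 98 beta-only cells of 116, or 84.5% (95% Clopper-Pearson interval 76.6% to 90.5%), in a library where 51.0% of single-TRB cells were beta-only. Of its 18 paired cells 15 carried the same main TRA, TRAV9N-4 with TRAJ22. The first TRBV31 clone, with TRBJ2-4, held 88 of 136 (64.7%), and 42 of its 48 paired cells shared a TRAV14N-1 and TRAJ4 chain. The second, with TRBJ2-1, held 78 of 81 (96.3%, interval 89.6% to 99.2%), and its 3 paired cells had 3 different TRAs. The TRBV13-1 clone held 64 of 132 (48.5%) and the clone with the joined TRBV12-2 or TRBV13-2 label 46 of 79 (58.2%). The TRBV13-1 clone was also labelled TRAV14N-1 with TRAJ4, in 61 of 68 paired cells, but 0 of these carried the alpha chain of the first TRBV31 clone.

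The clones without a paired cell were smaller. The TRBV26 clone with TRBJ2-2 held 20 beta-only cells of 20 (interval 83.2% to 100%) at a median of 13 TRB UMIs, and the TRBV31 clone named as having no paired cell held 14 of 14 at 20.5. A further 5 clones had 11 of 11 cells beta-only, 1 in KO IgG and 1 in WT IgG of experiment 2, and 3 in WT anti-4-1BB of experiment 2. One of these, with TRBV15, had a median of 39 TRB UMIs. At the other end the TRBV26 clone with TRBJ2-7 held 0 beta-only cells of 20 (interval 0% to 16.8%), and all 20 shared TRAV7-3 with TRAJ34.

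**Figure D5:**
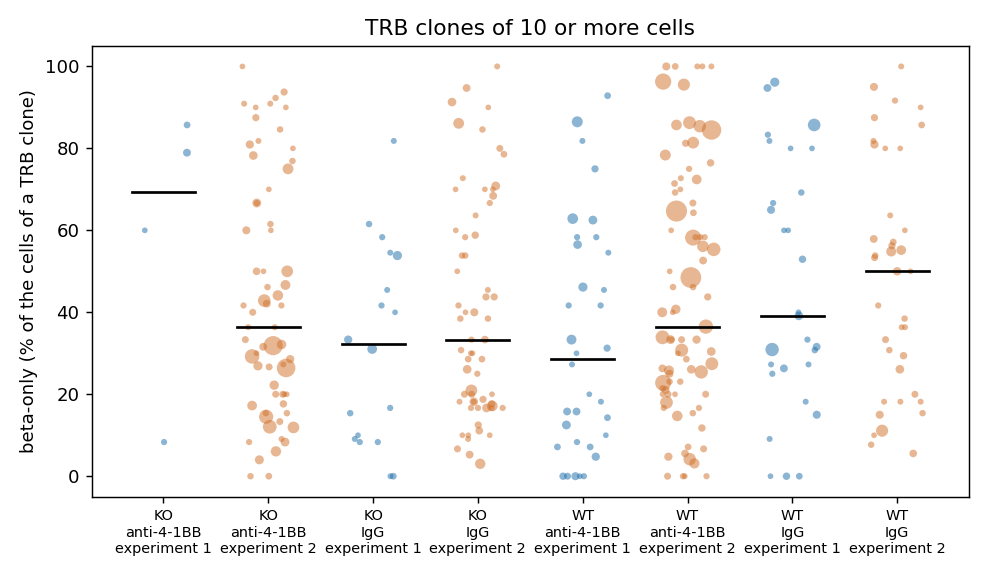
Share of the cells of a TRB clone that were beta-only (y axis, %) for the 333 clones with 10 or more single-TRB cells, by library (x axis). Each circle is a clone, its area grows with the number of cells, black lines are the medians of a library, and blue and orange mark experiments 1 and 2. Clones lie between 0% and 100%, with 48 over 80% and 90 under 20%.

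The alpha chain of the clone went along with the share of its members that were beta-only. For this, clones were taken whose first barcode in sorted order was a paired cell and whose paired cells all had the same main TRA. That first cell named the alpha chain and was left out, so its own class was not counted. The demand for the same main TRA still read the paired cells that were counted. A clone with more of them had more chances to be left out, and the effect of this was not tested. The 2888 such clones had 6010 further members, of which 32.4% were beta-only, between 22.2% and 38.9% by library. Of the 68 TRAV and TRAJ labels that passed a filter on low counts, 8 (11.8%) passed an adjusted p of 0.05 (edgeR with library as a block, Benjamini-Hochberg over all 68), 2 higher (2.94%) and 6 lower (8.82%) in beta-only members. With TMM factors 8 labels passed as well, but not the same 8: TRAV6D-6 and TRAV16N were added to the higher ones, and TRAV6N-7 and TRAV4N-4 were lost from the lower ones, which made 4 higher and 4 lower. The cells of a clone are not independent. With each clone counted once by class, 29 labels passed the count filter and 2 were called, TRAV7D-2 and TRAV7-5, both lower, and 0 were higher. Without the library block 1 label passed, TRAV5-4. Here too the spread was pooled over the segments of a type. The count filter read columns of both classes. TRAV5-4 would not have met it by its paired columns alone, nor TRAV7-5, TRAV7N-5, TRAV7D-3 and TRAV4N-4 by their beta-only columns alone. With no filter 21 of 125 labels passed, 15 higher and 6 lower, so the balance of directions depended on the filter.

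TRAV5-4, at chr14:53704007-53704514, had the highest log2 fold change of the labels that passed the count filter. Its further members were beta-only in 2 of 6 (KO anti-4-1BB), 1 of 1 (KO IgG), 3 of 10 (WT anti-4-1BB) and 8 of 12 (WT IgG) in experiment 1. In experiment 2 the counts were 11 of 12, 13 of 27, 13 of 15 and 17 of 21 in the same order. Over 37 clones that made 68 of 104, or 65.4%, and 61.8% without the largest clone (log2 fold change 1.92 ± 0.36, edgeR adjusted p = 1.32e-05). TRAV5-4 met the count filter only through its beta-only columns, the class in which it was high. Its rank and adjusted p are therefore no support for a higher use, and the fit counted cells of a clone as independent. With each clone counted once by class it was under the count filter and was not tested. TRAJ32 was higher as well, with 61 of 132 further members beta-only (1.13 ± 0.36, edgeR adjusted p = 0.0202). Without KO anti-4-1BB or without KO IgG of experiment 1 the edgeR adjusted p of TRAJ32 was 0.0605 and 0.0601, and with each clone counted once by class it was 0.0854. TRAV6D-6 and TRAV16N came next and did not pass, at 0.72 ± 0.27 (edgeR adjusted p = 0.0567) and 1.08 ± 0.41 (edgeR adjusted p = 0.0593).

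Of the 6 TRAV7 labels tested 4 were lower, beside 8.82% lower over all 68 labels. The other 2, TRAV7-3 (-0.93 ± 0.35, edgeR adjusted p = 0.0567) and TRAV7-6 (0.07 ± 0.41), did not pass. Of the 4, only TRAV7D-2 would have met the count filter by its beta-only columns alone. For TRAV7-5, TRAV7N-5 and TRAV7D-3 no library had more than 6, 5 and 3 beta-only members, so the family count rests partly on the filter. TRAV7D-2, at chr14:52683964-52684472, had 77 beta-only cells among 466 further members of 199 clones (16.5%), between 5.56% and 41.7% by library (log2 fold change -1.28 ± 0.25, edgeR adjusted p = 2.21e-05). TRAV7-5 had 24 of 173 (13.9%), TRAV7N-5 11 of 79 (13.9%) and TRAV7D-3 9 of 69 (13.0%), with log2 fold changes of -1.52 ± 0.35, -1.59 ± 0.48 and -1.61 ± 0.51. TRAV7N-5 and TRAV7D-3 did not pass with DESeq2 (adjusted p = 0.0539 and 0.0991). TRAV7D-3 did not pass without WT IgG of experiment 2 (edgeR adjusted p = 0.0620). TRAV6N-7 and TRAV4N-4 were lower by -0.86 ± 0.28 and -0.89 ± 0.29, and neither passed with TMM factors or with each clone counted once by class. TRAV6N-7 did not pass without WT anti-4-1BB of experiment 2 or WT IgG of experiment 1 (edgeR adjusted p up to 0.118), nor TRAV4N-4 without KO anti-4-1BB of experiment 2 or WT IgG of experiment 1 (up to 0.0829). The family did not move as one: TRAV7-4 had 43 beta-only cells of 64 further members (67.2%), was under the count filter of the fit and is named here after its values were seen. The mouse alpha locus holds near-identical copies of these V segments, told apart by the letters D and N, so single copies are uncertain.

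Contig length and beta-only share stood the other way round for the alpha chain. Over the 46 TRAV labels with 40 or more further members the share ran between 13.0% and 67.2%. Its rank correlation with the median TRA contig length of paired cells was 0.49, again as a description across labels of the same libraries. The rank correlation of the median TRA UMIs with that share was -0.31. The 6 labels with TRA contigs over 570 bases were beta-only in 39.0% to 67.2% of further members, and the others in 51.4% at most. The median TRA contig of paired cells was 581 bases for TRAV5-4, 591 for TRAV7-4 and 515 for TRAV7D-2. The part of TRA contig length in these differences was not tested. Clones with the invariant NKT alpha chain gave 1 further member in all, of which 0 were beta-only, and clones with that of mucosal-associated invariant T cells gave 0.

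Within beta-only cells V and J use did not differ by treatment or genotype past the threshold. Between anti-4-1BB and IgG 0 of 34 labels passed (0%; edgeR), and 1 had an unadjusted p under 0.05, while DESeq2 gave 0 and 2. The smallest p-values were those of TRBJ2-4, with a log2 fold change of 0.15 ± 0.06 (edgeR adjusted p = 0.651), TRBJ1-4 with -0.15 ± 0.08 and TRBV13-3 with -0.33 ± 0.17. TRBV12-2, TRBV12-1 and TRBJ1-5 had 1.21 ± 0.63, 1.38 ± 0.82 and -0.27 ± 0.15. Between KO and WT 0 of 34 passed as well (0%; edgeR), and 1 had an unadjusted p under 0.05, while DESeq2 gave 0 and 1. TRBJ1-6 had the smallest p, with a log2 fold change of 0.36 ± 0.12 (edgeR adjusted p = 0.197), followed by TRBV29 with -0.33 ± 0.16. The joined TRBV12-2 or TRBV13-2 label, TRBV30, TRBJ2-7 and TRBJ1-4 had 0.22 ± 0.14, 0.53 ± 0.40, -0.08 ± 0.05 and -0.09 ± 0.08. With 4 libraries on each side these intervals are wide for the rarer segments, and the lack of calls does not show that use was alike.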

How the data were processed

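Each deposited file holds 1 library and lists, contig by contig, segment labels, CDR3, length in bases and the read count and UMI count, per the file headers. Cell Ranger 7.1.0, bcl2fastq 2.20.0 and Seurat, and the build GRCm38, are named in the submitters' processing notes. The sources used here do not name a V(D)J reference. Checked on the files, 0 of 123611 contigs were marked as outside cells, low confidence, incomplete or not productive, so a chain removed before deposit cannot be told apart from a missing chain. No doublet caller was run, and barcodes with 2 or more TRB contigs were kept out of both classes. Gene expression libraries of the same samples were not analysed here. Of the 34 TRB labels, 33 matched RefSeq symbols of GRCm38.p6, and the other joins TRBV12-2 and TRBV13-2.

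Class differences were taken inside each library and tested over all 256 sign patterns. Shares were tested over the 70 arrangements of 4 against 4 libraries, which cannot give a p below 0.0286. Segments were counted as distinct TRBs, or as cells for the alpha chain of a clone, and tested with edgeR 4.0.16 in R 4.3.3 (quasi-likelihood test, 10 or more in at least 2 columns, segment type total as library size, no abundance trend, library as a block between classes), with DESeq2 1.42.0 as an alternative. The edgeR fits were run on simulated counts, and the thinning and permutation formulas on simulated or fixed values. DESeq2 was not checked in this way. The simulated counts were independent, so the check says nothing on the dependence between cells of a clone. Named segments are all those called, up to 10 in each direction between classes, 5 between treatments or genotypes and 8 for the alpha chain, filled by smallest p to 5, 3 and 4. Members, lists and tests were chosen with earlier results of these data known. Replicate numbers mark the experiments that the labels name, so same-numbered libraries come from the same experiment. The main tests of treatment and genotype did not use the experiment, which entered as an alternative. The deviations of same-numbered libraries in TRBV use correlated with r between -0.07 and 0.80 over the pairs of groups. Permutation tests ran in Python 3.11.15 with scipy 1.17.1, pandas 2.3.3 and numpy 2.4.6.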

Additional observations from a re-analysis of the deposited data

Results flagged for a closer look

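The treatment difference in the beta-only share had opposite signs in the experiments, -9.60 percentage points in experiment 1 and 7.52 points in experiment 2, each over the KO and the WT pair of libraries. The genotype difference had opposite signs under the antibodies, 2.59 points under anti-4-1BB and -7.03 points under IgG, each over 2 experiments. Neither opposition was tested, since 2 pairs stand on each side.

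The class differences themselves were compared between the experiments, treatments and genotypes with exact permutation tests over 70 arrangements, 12 tests in all. By experiment, 3 of them reached the smallest p that these arrangements can give, 0.0286 (adjusted p = 0.114 over the 12), so none passed after adjustment. The log2 ratio of TRB UMIs between beta-only and paired cells was -0.11 ± 0.02 in experiment 2 and -0.29 ± 0.06 in experiment 1 (SD, n = 4 libraries each), a difference of 0.18. The difference in cells of TRB clones of 2 or more, after thinning, was -6.76 ± 5.33 points in experiment 2 and 5.13 ± 4.09 points in experiment 1, 11.9 points apart (-11.9, experiment 2 minus 1). The difference in cells whose TRB was in another paired cell was -12.2 ± 4.01 points in experiment 2 and -4.40 ± 2.05 points in experiment 1 (-7.84). The remaining 9 comparisons, by treatment, by genotype and of CDR3 length by experiment, had exact permutation p-values of 0.171 or more. No library stood apart from the other 7 in these differences or in the beta-only share.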

How the results depend on the processing

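Of the recomputed values of the comparisons, 130 kept their direction and side of the threshold (or stayed within 1.5 times, for counts of calls), 3 no longer passed, 6 counts moved further and 8 differences changed sign. The share differences, which did not pass, changed sign: the treatment difference was 0.691 points with TRBs of 5 to 20 UMIs, and leaving out single libraries gave -4.12 to 2.85 points for treatment and -6.65 to 0.259 for genotype. Leaving out single libraries gave -2.28 to 0.836 points for cells in clones of 2 or more. The library pairs the classes. Without that replicate block the values of -0.20 (log2 TRB UMIs), -0.136 nucleotides and -8.33 points no longer passed, and 10 TRB labels and 1 TRA label passed in place of 17 and 8. With the experiment as a replicate block the exact permutation p was 0.833 for treatment and 0.667 for genotype, and calls of TRB labels within beta-only cells stayed at 0. For the alpha chain of the clone, 5 labels passed with DESeq2, 21 with no filter on low counts (15 higher and 6 lower), 2 of 29 with each clone counted once by class (0 higher and 2 lower), and 5 (without WT anti-4-1BB of experiment 2) to 12 (without KO IgG of experiment 2) with single libraries left out. The cause of these shifts was not tested. TRBV30, not called between KO and WT, ranged between -0.24 and 0.78 on the log2 scale over libraries left out. Settings added after seeing the data gave 16 TRB labels with TRBs carried by 1 cell, and 12 TRA labels with 1 main TRA in 80% or more of paired cells. TRA contigs rested on library medians of 6 to 10 UMIs, and the part of depth in missing alpha chains was not tested. Without thinning, cells in clones of 2 or more differed by -4.12 points.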

Other observations

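The files carry a clonotype ID for every cell, assigned by the submitters' software. Beta-only cells whose TRB was found in a paired cell of the same library shared that cell's ID in 58.5% (KO anti-4-1BB), 30.2% (KO IgG), 0% (WT anti-4-1BB) and 29.9% (WT IgG) of cases in experiment 1. In experiment 2 the values were 0.875%, 0%, 0.676% and 25.5% in the same order of groups. In the KO IgG library of experiment 2, the 11 cells of 1 beta-only clone (TRBV13-3 with TRBJ2-4) had 11 different IDs, whereas the 20 beta-only cells of the TRBV26 clone with TRBJ2-2 in the WT anti-4-1BB library of that experiment had 1. Why the IDs differ between libraries was not tested, and they were not used in any comparison.

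A TRB clone defined by its beta chain alone can hold more than 1 alpha chain. Of 6606 TRB clones with 2 or more cells, 1218 held 2 or more different main TRAs among their paired cells. Of the beta-only cells matched to a paired cell, 46.0% to 94.6% by library had a clone with a single main TRA.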
